A study of Rattus norvegicus with 4 samples.

Results

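Intronic circular RNAs (circRNAs) of the rat sciatic nerve were the 479 circRNAs that the deposited files class as intronic, of 4942 circRNAs in all. The other classes held 3731 exonic and 732 intergenic circRNAs. Members were chosen by that class alone, and every one of the 479 had reads in at least 1 library. The nerves came from Sprague-Dawley rats at postnatal week 6. In the crush group, forceps closed 2 times for 15 s, 3 s apart, on 3 mm of nerve, and that length plus 1 mm of nerve at each end was collected 24 h later. In the sham group the nerve was exposed and not crushed. Each group had 2 libraries of total RNA, and nothing in the labels says that these were of separate animals. The p-values below therefore reflect the spread of these 4 libraries, and that spread may be technical.

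A circRNA is seen through its back-splice junction, where reads join a downstream position of a transcript to an upstream one. Most circRNAs join exon to exon. Intronic circles are known to arise from intron lariats that escape debranching, and circles can also keep intron sequence between or beside their exons. After a crush, axons beyond the lesion break down, Schwann cells change state and leukocytes enter the nerve. The study compares injured with sham-operated nerve, and here the question is how the intronic class differs between them.

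Each library held 8250 to 9027 junction reads, and 1704 to 2022 circRNAs were listed in it. Since no count of 1 occurs in the files, a 0 means that the circRNA was not reported in that library, and it can hide reads. Of 7 defining Schwann cell genes looked up, 5 (Prx, Mag, Egr2, Sox10 and S100b) had no circRNA of any class. Mbp and Pmp22 had 3 reads each, all in sham replicate 2. The Pmp22 reads came from 1 intronic circRNA, listed on the strand opposite to the gene's strand in RefSeq's assembly GRCr8. Of 10 defining leukocyte genes, 4 had a circRNA, with the most reads from Csf3r, the receptor for granulocyte colony-stimulating factor, at 28 and 16 reads in crush replicates 1 and 2 and 0 in both sham libraries. Itgam had 6 and 5 and Ptprc 2 and 0 in the crush libraries, both with 0 in sham, while Mrc1 had 2 reads in sham replicate 2 and 0 in the others. Itgb2, Csf1r, Adgre1, Cd163, S100a8 and S100a9 had none. These are circRNA reads and do not give the level of the linear mRNA.

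No genome of the files' build, Rnor_6.0, was used here, so the circles themselves are not printed. The promoters of the 4 host genes whose intronic reads passed a test, singly or summed per host, are shown instead. These genes were chosen by that test, so their common rise after crush is not a separate result. The circRNAs of Klhl21 and Zfp629 were listed on the strand opposite to their gene. Whether the printed promoters drive the reads was not tested. The promoters are the 250 bases before the gene start in RefSeq's assembly GRCr8, 5′ to 3′ on the gene's strand. Capitals mark any match, on either strand, to TGANTCA (the AP-1 site), to CCAAT (the CCAAT box), to GGGCGG (the GC box) or to TATAAA (the TATA box).
Klhl21, chr5:167797371-167797620, plus strand: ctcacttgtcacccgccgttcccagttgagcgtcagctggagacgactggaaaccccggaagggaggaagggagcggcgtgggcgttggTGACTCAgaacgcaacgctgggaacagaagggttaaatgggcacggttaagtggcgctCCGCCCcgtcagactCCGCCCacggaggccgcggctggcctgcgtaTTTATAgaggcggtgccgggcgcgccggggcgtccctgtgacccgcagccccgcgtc
Mgam, chr4:70408013-70408262, plus strand: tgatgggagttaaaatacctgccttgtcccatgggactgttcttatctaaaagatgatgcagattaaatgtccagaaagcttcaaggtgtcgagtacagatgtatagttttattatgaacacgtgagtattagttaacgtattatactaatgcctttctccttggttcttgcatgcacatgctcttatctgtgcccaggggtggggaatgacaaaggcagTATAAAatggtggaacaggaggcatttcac
Zfp629, chr1:191659713-191659962, minus strand: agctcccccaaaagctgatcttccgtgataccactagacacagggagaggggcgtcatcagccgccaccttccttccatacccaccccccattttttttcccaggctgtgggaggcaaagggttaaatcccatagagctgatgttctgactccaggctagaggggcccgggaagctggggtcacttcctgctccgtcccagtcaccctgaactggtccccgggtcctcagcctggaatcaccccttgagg
Mbd2, chr18:66449108-66449357, plus strand: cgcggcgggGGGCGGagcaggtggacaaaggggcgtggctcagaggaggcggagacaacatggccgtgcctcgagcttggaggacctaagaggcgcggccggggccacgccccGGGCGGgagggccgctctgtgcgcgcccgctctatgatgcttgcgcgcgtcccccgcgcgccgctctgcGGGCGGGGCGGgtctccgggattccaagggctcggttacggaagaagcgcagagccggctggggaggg
None of these 4 motifs was in all 4 promoters, and no other motif was searched. Klhl21 held 1 match to TGANTCA, 2 to GGGCGG and 1 to TATAAA, Mgam held 1 to TATAAA, Mbd2 held 4 to GGGCGG with overlapping matches counted apart, and Zfp629 held none. Of 33469 RefSeq promoters of the same length, 6.34% held TGANTCA, 34.0% CCAAT, 30.5% GGGCGG and 12.9% TATAAA. A match describes these letters and is not evidence of a bound factor.

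Few intronic circRNAs had enough reads to be tested, and those that passed were all higher after crush. Of the 479, 19 reached 5 junction reads in 2 or more libraries and entered edgeR's quasi-likelihood test beside 409 others. A circRNA at 0 in 1 group could enter only through its reads in the other. After Benjamini-Hochberg adjustment over all 428, 3 intronic circRNAs were higher after crush, against 7.48% of all tested circRNAs, and 0 were lower, against 4.44%. In either direction 11.9% of all tested circRNAs passed. At an unadjusted p under 0.05, edgeR gave 8 intronic circRNAs as higher, against 16.8% of all tested, and 1 as lower, against 11%. DESeq2 gave an adjusted p to 16 of the 19, with 7 higher, against 7.01% of its 328 circRNAs, and 0 lower, against 2.13%. Of the 19, 9 had both crush libraries above both sham libraries after scaling, against 30.1% of all tested, and 5 had both below, against 28%. The median log2 change was 0.86 over the 19 and 0.03 over the 428. Of the 19, 10 had a log2 change above 0 (52.6%), against 51.4% of all tested. The median of the 19 was the value of a single Wash1 circRNA, in which the groups overlapped.

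The 3 were Mgam, Mbd2 and Zfp629. Mgam encodes maltase-glucoamylase, a starch-digesting enzyme of the gut brush border that neutrophils are also known to express. Its intronic circRNA (chromosome 4, 68943985 to 68971758, plus strand, Rnor_6.0 as for all circRNAs below) had 23 and 21 reads in crush replicates 1 and 2 and 0 in both sham libraries. It was at least 6.43-fold higher after crush in SRPBM, the deposited per-library scaling of reads, taking 3 reads in each sham library as the floor (log2 change 7.58 ± 0.85 (SE), adjusted p = 0.0454, edgeR). No exonic circRNA of Mgam was listed. In whole nerve, more cells of a type and more RNA per cell cannot be told apart.

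Mbd2 encodes a methyl-CpG-binding protein that recruits repressor complexes to methylated DNA. Its circRNA (chromosome 18, 65825830 to 65841509, plus strand) had 20 and 16 reads in crushed nerve and 4 and 3 in sham nerve. It was the only 1 of the 3 listed in every library, at 1.20 ± 0.349 SRPBM after crush and 0.264 ± 0.0392 after sham (SD, n = 2). The model's log2 change was 2.54 ± 0.48 (SE), a 5.82-fold rise with adjusted p = 0.0454 (edgeR). With library totals from the SRPBM scaling in place of TMM factors, its adjusted p was 0.0590 (edgeR).

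Zfp629, a zinc finger gene, gave a short circRNA (chromosome 1, 198932174 to 198934500, plus strand) with 10 and 22 reads in crushed nerve and 0 in sham nerve. It was at least 4.49-fold higher in SRPBM (log2 change 7.12 ± 1.26 (SE), adjusted p = 0.0485, edgeR). The crush replicates differed by more than for Mgam, yet did not overlap sham. All 3 calls depended on the filter. Under a minimum of 2 reads in 2 libraries, with 68 intronic circRNAs tested, the adjusted p was 0.135 for each of Mgam, Mbd2 and Zfp629 (edgeR).

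**Figure D1:**
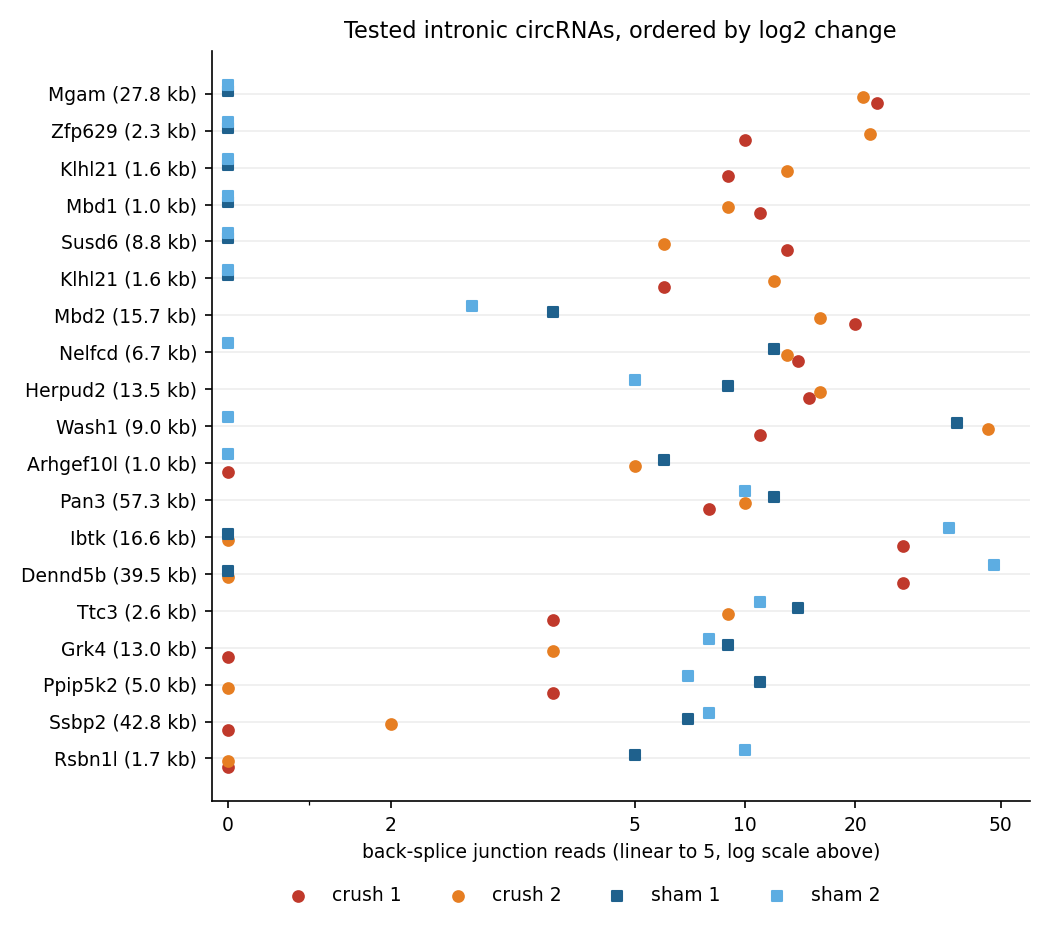
Back-splice junction reads of the 19 tested intronic circRNAs in each library, ordered by log2 change, with the genomic span beside the host gene; the axis is linear to 5 reads and logarithmic above. Mgam, Zfp629, Mbd1, Susd6 and both Klhl21 circRNAs have reads in both crush libraries and 0 in both sham libraries, while Dennd5b and Ibtk have reads in crush replicate 1 and sham replicate 2 alone.

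Other circRNAs with more reads after crush did not pass. Mbd1 encodes another methyl-CpG-binding protein, and its circRNA of 1009 bases (chromosome 18, 70254197 to 70255206) had 11 and 9 reads in crushed nerve and 0 in sham nerve, at least 2.94-fold more (adjusted p = 0.0570, edgeR). Susd6, a sushi domain gene of the p53 response, had 13 and 6 reads in crushed nerve and 0 in sham nerve at chromosome 6, 104466414 to 104475259 (adjusted p = 0.0705, edgeR). Herpud2, a relative of the endoplasmic reticulum stress gene Herpud1, had more reads in all than any of the 3 that passed and was listed in every library, with 15 and 16 reads in crushed nerve and 9 and 5 in sham nerve at chromosome 8, 26290097 to 26303578. Its log2 change was 1.36 ± 0.46 (SE), and the groups did not overlap (adjusted p = 0.136, edgeR).

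On the sham side no intronic circRNA passed. Rsbn1l was nearest, with 0 reads in both crush libraries and 5 and 10 in sham replicates 1 and 2 at chromosome 4, 10775672 to 10777395, at least 2.90-fold lower (adjusted p = 0.0663, edgeR). Ssbp2, a cofactor of LIM domain transcription factors, had 0 and 2 reads in crushed nerve and 7 and 8 in sham nerve at chromosome 2, 20488617 to 20531444 (adjusted p = 0.219, edgeR). Ppip5k2, an inositol pyrophosphate kinase, had 4 and 0 against 11 and 7 reads. Grk4, a receptor kinase, had 0 and 4 against 9 and 8. Their adjusted p was 0.408 and 0.420 (edgeR), and in each the crush libraries lay below the sham libraries.

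Klhl21 gave more intronic circRNAs than any other host gene. It encodes a substrate adaptor of Cullin 3 ubiquitin ligases that acts in cell division. Its 8 circRNAs shared the end at chromosome 5, 169185563, on the minus strand. Their other ends lay at 169183931, 169183933, 169183937, 169183939, 169183941, 169183943, 169183945 and 169183949, in steps of 2 or 4 bases over 18 bases, with spans of 1614 to 1632 bases. All 8 were listed in crush libraries and in neither sham library. The largest, ending at 169183945, had 9 and 13 reads in crush replicates 1 and 2 (adjusted p = 0.0550, edgeR), and the next, at 169183941, had 6 and 12 (adjusted p = 0.0652, edgeR). The other 6 had 2 to 8 reads where listed, 3 of them in crush replicate 2 alone.

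Summed over the 8, Klhl21 had 22 and 51 intronic reads in crush replicates 1 and 2 and 0 in both sham libraries. These were 3.42% and 8.21% of the intronic reads of those libraries. Sums were tested per host gene and class, 501 entries in all, of which 22 were intronic. Klhl21 rose with a log2 change of 8.32 ± 1.08 (SE), at least 10.2-fold in SRPBM (adjusted p = 0.0207, edgeR). Mgam (adjusted p = 0.0225) and Zfp629 (adjusted p = 0.0408) passed beside it in edgeR. These 3 of 22 stand against 4.19% of all entries called higher, and 0 of 22 against 1.4% called lower (5.59% in either direction). At an unadjusted p under 0.05, edgeR gave 7 intronic entries as higher, against 17.2% of all, and 1 as lower, against 8.98%. DESeq2 called 6 of 21 higher, against 6.16% of its 471 entries, and 0 lower, against 1.7%. Both crush sums lay above both sham sums in 10 of 22, against 31.5% of all entries, and below them in 5, against 29.1%. Mbd2 missed at this level, with adjusted p = 0.0541 (edgeR). Without sham replicate 1, edgeR called 0 intronic entries, with adjusted p = 0.0559 for Klhl21 and Mgam and 0.0788 for Zfp629, and without sham replicate 2 it called 5.

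**Figure D2:**
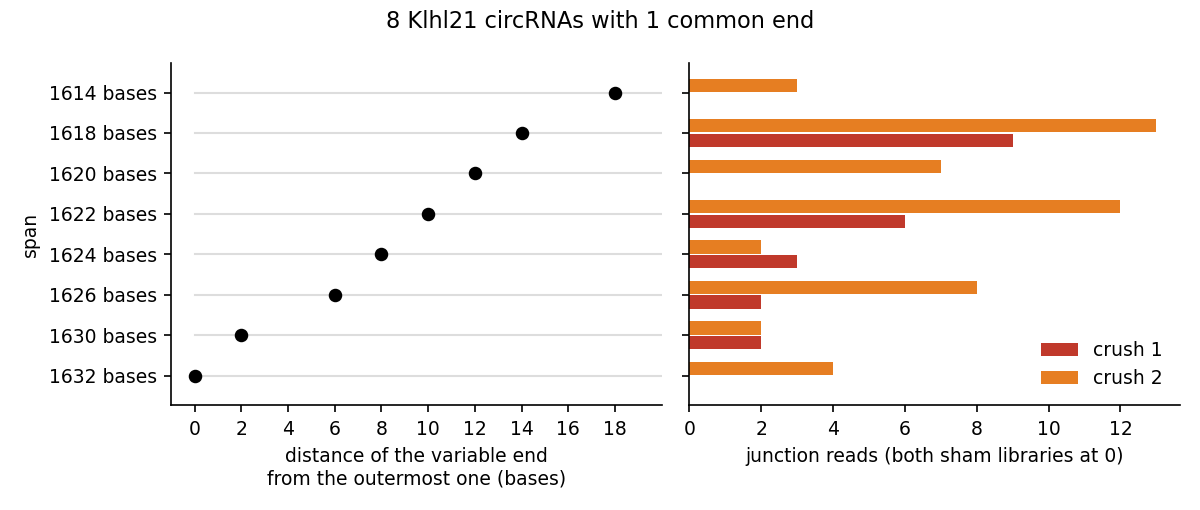
The 8 intronic circRNAs of Klhl21: on the left, the distance of each variable end from the outermost one in bases, by span; on the right, the junction reads in the 2 crush libraries. The ends are 2 or 4 bases apart over 18 bases, the circRNAs of 1618 and 1622 bases have the most reads, and both sham libraries are at 0.

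Closely placed ends were counted within each class, with no test. Of the 479, 10 (2.09%) had another intronic circRNA of the strand with both ends within 20 bases, the 8 of Klhl21 and 2 of Lsm5. Among exonic circRNAs 22 (0.590%) had an exonic neighbour so close, and among intergenic ones 14 (1.91%) an intergenic neighbour. Merging such circRNAs, an alternative chosen after seeing the data, left 471 intronic circRNAs, of which 18 were tested and 5 were called higher by edgeR.

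Other abundant intronic circRNAs were uneven between replicates of 1 group. The most abundant of all came from Ralgapa1, the catalytic subunit gene of a Ral GTPase activator, at chromosome 6, 76591791 to 76599536. It had 207 reads in sham replicate 1 and 0 in the other 3 libraries. Dennd5b, a Rab activator gene, had 27 reads in crush replicate 1, 48 in sham replicate 2 and 0 in the others. Ibtk, which encodes an inhibitor of Bruton tyrosine kinase, had the same pattern with 27 and 36 reads.

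Wash1, of the endosomal WASH complex, had 11 and 46 reads in crushed nerve and 38 and 0 in sham nerve. Wash1 belongs to a family with near-identical copies in mammals, so the assignment of its reads is uncertain. Nelfcd, a subunit of the negative elongation factor, had 14 and 13 after crush and 12 and 0 in sham nerve, and its second circRNA, 6519 bases in span, had 18 reads in sham replicate 1 alone. Calcrl, the calcitonin receptor-like receptor, had 14 reads in that same library alone. Arhgef10l, a guanine nucleotide exchange factor gene, had 5 reads in crush replicate 2, 6 in sham replicate 1 and 0 in the others. The adjusted p of the tested circRNAs among these ran from 0.497 for Nelfcd to 0.999 for Arhgef10l (edgeR).

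The unevenness was also counted over whole classes. A circRNA with at least 20 reads in 1 library was listed at 0 in the other replicate in 7 of 12 intronic cases (58.3%), 7 of 130 exonic cases (5.38%) and 4 of 46 intergenic cases (8.70%). The 5 intronic circRNAs with the most reads took 26.4% and 19.5% of the intronic reads of crush replicates 1 and 2, and 43.6% and 26.4% of those of sham replicates 1 and 2. Among exonic circRNAs that share was 4.95% to 11.8%. The share was higher for intronic circRNAs in all 4 libraries (exact sign-flip permutation p = 0.125, two-sided, the smallest that 4 libraries can give).

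Only 4 intronic circRNAs (0.835%) were listed in every library, against 6.81% of exonic ones. They were Herpud2, Mbd2, Pan3 and Ttc3. Pan3, a subunit of a poly(A) deadenylase, had 8 and 10 reads in crushed nerve and 12 and 10 in sham nerve at chromosome 12, 9256476 to 9313769, with overlapping groups (log2 change -0.07 ± 0.43 (SE), adjusted p = 0.950, edgeR). Ttc3, a ubiquitin ligase gene, had 4 and 9 after crush and 14 and 11 after sham at chromosome 11, 34611539 to 34614139 (log2 change -0.71 ± 0.54 (SE), adjusted p = 0.488, edgeR). A single library held 411 of the 479 (85.8%), against 70.7% of exonic circRNAs. The other replicate of the group also listed 18.4% and 17.6% of the intronic circRNAs of crush replicates 1 and 2, and 13.4% and 13.9% of those of sham replicates 1 and 2. The same shares for exonic circRNAs were 40.4%, 35.9%, 39.9% and 39.0%. The difference was -22.9 ± 3.65 percentage points (SD over 4 libraries; exact sign-flip permutation p = 0.125, two-sided), and the libraries of a group share their overlap, so these 4 values are not independent.

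Both crush libraries and no sham library listed 21 intronic circRNAs (4.38%), against 4.51% of all circRNAs, a share near the background. Both sham libraries and no crush library listed 5 (1.04%), against 3.56%. Beside those already named, the crush set held circRNAs of Cdyl, a chromodomain gene (4 and 6 reads), of Vopp1 (7 and 3 reads, 370 bases), of Adgre5, the leukocyte adhesion receptor CD97 (4 and 3 reads, 193 bases), and of Ankrd44 (4 and 3 reads). Sntb2, Naip6, Lyst, Asxl1, Dot1l, Zfc3h1, Usp3 and a second circRNA of Pan3 had 2 to 4 reads in each crush library. Naip6 is one of several similar inflammasome receptor genes, so its reads are uncertain. The 5 of the sham set were Rsbn1l, Nip30 (6 and 3 reads), Myh1 (3 and 5 reads), Ptch1, the Hedgehog receptor (3 and 3 reads), and Rims2, a presynaptic active zone gene (2 and 3 reads).

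Intronic circRNAs hosted by genes of the leukocyte and inflammation list were listed in the crush libraries and in neither sham library. Of the 66 genes listed, 11 hosted 16 intronic circRNAs, with 37 and 50 reads in crush replicates 1 and 2 and 0 in both sham libraries. All 16 were listed after crush alone, against 261 of all 479 intronic circRNAs (54.5%). Without Mgam, 15 circRNAs remained, with 14 and 29 reads. After Mgam the most reads came from Arhgap15, a Rac inhibitor of phagocytes (8 and 4 reads over 4 circRNAs), and from Lilrb3l, a leukocyte immunoglobulin-like receptor of a multigene family whose reads are uncertain (0 and 11). Nlrp3, the inflammasome sensor, had 0 and 4, and Aoah, which inactivates lipopolysaccharide, had 2 and 2. Csf2rb, Itgam, Dock2, Nampt, Ncf1 and Picalm had 2 reads each in 1 crush library. Exonic reads of 26 genes of the list stood at 154 and 176 after crush and 21 and 22 after sham. Only Mgam had enough intronic reads to be tested, and the list was drawn up with earlier results of these data known.

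Genes on the lists for resident cells were counted in the same way. Of 43 Schwann cell and myelin genes, 3 did. Lama4, a laminin chain, had 4 reads in sham replicate 1, and Mlip, a lamin-interacting protein, had 4 in crush replicate 2. Pmp22, a compact myelin protein, had 3 in sham replicate 2, from a circRNA on the strand opposite to the gene. Exonic reads of the list were 92 and 100 after crush and 242 and 289 after sham. Mlip alone gave 76 and 75 of these after crush and 204 and 226 after sham, so the sum says little of the other genes. Of 53 matrix and adhesion genes, Ltbp1 (0 and 2 against 0 and 2 reads), a latent TGF-beta binding protein, and Emilin2 (0 and 2 against 0 and 0) did, while exonic reads of the list were 96 and 124 after crush and 20 and 27 after sham. Of 32 muscle genes, Myh1 alone did, a fast myosin heavy chain in a cluster of similar genes. No gene of the adipocyte list (16 genes), the endothelial list (15) or the neuron list (24) hosted one, and 1, 4 and 4 of them hosted an exonic circRNA.

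Genes widely reported to form circRNAs also hosted intronic ones. Of 43 such genes, 12 hosted 23 intronic circRNAs, with 20 and 31 reads in crushed nerve and 30 and 28 in sham nerve. Their exonic reads were 612 and 759 after crush and 1103 and 1152 after sham. Of these, Nfix had 67 and 106 after crush and 265 and 343 after sham. Mlip had 76 and 75 against 204 and 226, and Ttc3 had 57 and 70 against 210 and 173. Other hosts went the other way, such as Cdyl with 28 and 43 against 7 and 10. The lower sum after crush rested largely on Nfix, Mlip and Ttc3. Ttc3 led with 4 and 9 intronic reads after crush and 20 and 13 after sham, followed by Cdyl (7 and 6 against 2 and 0) and the Polycomb-related gene Asxl1 (4 and 4 against 0 and 3).

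In all, 383 genes hosted the 476 intronic circRNAs with a single host, and 316 of these genes hosted just 1. After Klhl21 came Cul3, the cullin of its ligase, with 5 intronic circRNAs and 3 and 5 reads with crush against 5 and 3 with sham. Sorcs1, Mtmr3, Ttc3 and Arhgap15 had 4 each. The 4 of Mtmr3, a phosphoinositide phosphatase, held 8 reads in crush replicate 1 alone, and those of Sorcs1, a sorting receptor, held 2 reads in that library and 7 in sham replicate 1. By reads, Ralgapa1 (209 over 2 circRNAs), Wash1 (100), Dennd5b (75), Klhl21 (73) and Ibtk (63) were among the leading hosts.

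More intronic circRNAs were listed in each crush library than in either sham library. The crush libraries had 163 and 170 and the sham libraries 119 and 115, or 166.5 ± 4.95 against 117 ± 2.83 (SD, n = 2; exact permutation p = 0.333, two-sided, the smallest that 2 against 2 can give). They made up 9.13% and 8.41% of listed circRNAs after crush and 6.98% and 6.72% after sham, a difference of 1.92 percentage points (exact permutation p = 0.333). The difference in number lay among circRNAs with few reads. With at least 5 reads required, 20 and 26 were left after crush and 20 and 19 after sham, a mean difference of 3.5. Exactly 2 reads were held by 62.0% and 57.1% of listed intronic circRNAs after crush and 46.2% and 48.7% after sham. Intergenic circRNAs also did not overlap, with 262 and 321 listed after crush and 248 and 228 after sham, or 14.7% and 15.9% against 14.6% and 13.3% of listed circRNAs. Exonic circRNAs overlapped in number, with 1360 and 1531 after crush and 1337 and 1368 after sham. As a percent of listed circRNAs they did not overlap, at 76.2% and 75.7% after crush and 78.5% and 80.0% after sham.

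Intronic reads did not separate the groups. They totalled 644 and 621 after crush and 667 and 435 after sham. As a share of junction reads this was 7.81% (95% exact Clopper-Pearson interval 7.24% to 8.41%) and 6.88% (6.37% to 7.42%) in crush replicates 1 and 2. In sham replicates 1 and 2 it was 7.40% (6.86% to 7.96%) and 4.99% (4.54% to 5.46%). The intervals cover counting error only. The difference of 1.15 percentage points was smaller than the spread between the sham libraries (exact permutation p = 0.667, two-sided). It rested on sham replicate 2, since without that library it was -0.05, and without sham replicate 1 it was 2.36. The single Ralgapa1 circRNA also moved it, to 2.24 when left out.

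**Figure D3:**
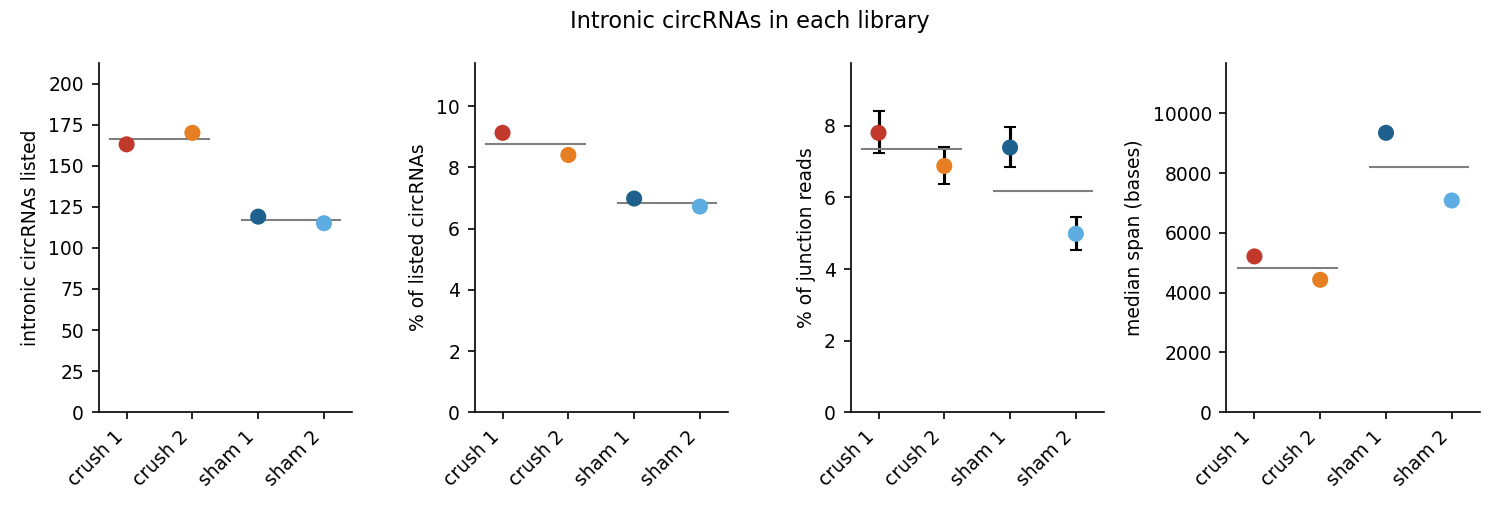
Intronic circRNAs in each library, from left to right as the number listed, the percent of all listed circRNAs, the percent of junction reads with its 95% exact interval, and the median genomic span in bases; grey lines are group means of 2 libraries. Both crush libraries lie above both sham libraries in number (163 and 170 against 119 and 115) and below them in median span, while the share of reads overlaps.

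The span of a circRNA is the genomic distance between its ends, introns included, and not the length of the molecule. Intronic spans ran from 136 to 192626 bases, with quartiles of 1608.5, 6285 and 21273.5. The shortest belonged to Snx14 (136 bases), Lsp1 (159), AABR07000411.1 (164) and Lbh (173), and the longest to Atrnl1 (192626), Tbc1d5 (175183), Lilrb3l (160609) and Gulp1 (152429). Each of these 8 was read in 1 library only, with 2 to 4 reads. Spans under 1000 bases made up 16.5% of intronic and 8.47% of exonic circRNAs, and spans of 50000 bases or more made up 9.60% and 6.35%. Within libraries the intronic median was below the exonic one, a difference of -2344 ± 1150 bases (SD over 4 libraries; exact sign-flip permutation p = 0.125, two-sided).

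The median span was shorter in both crush libraries than in either sham library. The median was 5212 and 4430.5 bases with crush and 9347 and 7083 bases with sham, a difference of -3394 bases (exact permutation p = 0.333, two-sided). The excess of listed circRNAs after crush was in part of short ones, since 26 and 37 spans under 1000 bases were listed after crush and 9 and 14 after sham. The exonic class moved the same way, with 149 and 139 short spans against 90 and 101, and medians of 7555 and 8250 against 10362 and 9282 bases.

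**Figure D4:**
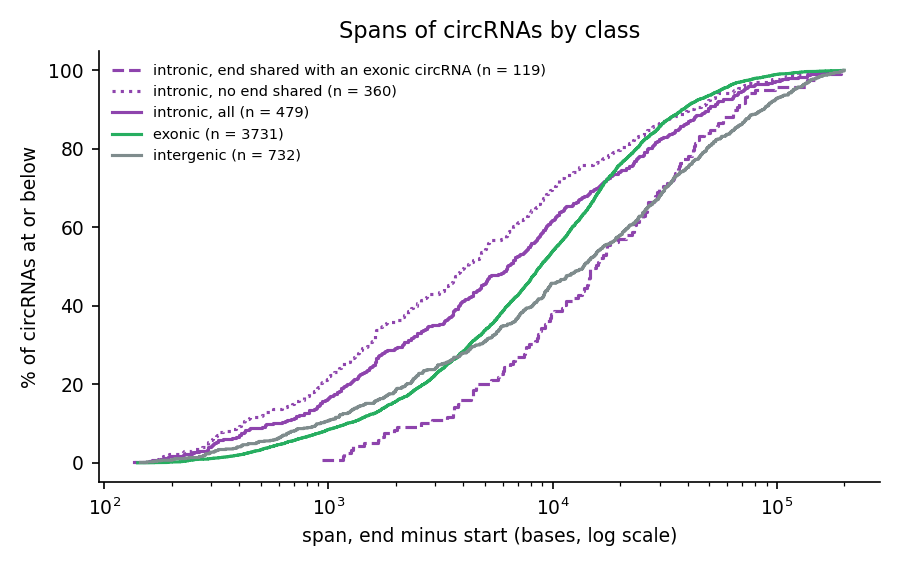
Cumulative percent of circRNAs at or below each genomic span (bases, log scale) for intronic, exonic and intergenic circRNAs, and for intronic circRNAs with and without an end shared with an exonic circRNA. The 360 intronic circRNAs with no shared end are the shortest set (median 4034.5 bases), and the 119 with a shared end have a median of 15679 bases.

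Intronic in the files' sense did not mean lying within 1 intron. Of the 479, 111 (23.2%) held a whole exonic circRNA of the same strand within their span, with a median span of 23105 bases against 3834 for the rest. A further count found 60 inside the span of an exonic circRNA, and 300 that overlapped none. An end was shared with an exonic circRNA of the strand by 119 (24.8%), of which 50 shared the upstream end, 69 the downstream end and 0 both. By library 24.4% to 32.2% of intronic circRNAs shared an end, against 45.8% to 47.5% of exonic ones with another exonic circRNA (exact sign-flip permutation p = 0.125, two-sided). Those with a shared end were in more than 1 library in 25 of 119 cases (21.0%), against 43 of 360 (11.9%) of the others.

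Where both circles came from 1 host, the exonic one usually had more reads. In 117 such pairs the exonic circRNA led in 90, the intronic in 11, and 16 were equal, with median reads over 4 libraries of 8 and 3. The pairs used 105 exonic circRNAs, so some share a partner. Some intronic circles had several exonic ones at the shared end. For 1 of Mtmr3, at 84766181, the partner counted had 119 reads, and 2 others at that end had 30 and 2. A circle with 2 reads in all could at most tie. That was so for 260 of all 479 intronic and 1558 of all 3731 exonic circRNAs. The exonic lead thus depends in part on the choice of partner and on the smallest listed count. The intronic span was the longer in 90 pairs. Mbd2 and Susd6 were among the 11 pairs in which the intronic circle had more reads. The exonic partner of the Mbd2 circle, ending 1089 bases short of it, had 6 and 2 reads in crushed nerve and 0 in sham nerve, so the intronic one held 76.9% and 88.9% of the pair's reads after crush. The exonic partner of Susd6 had 5 and 2 reads in crushed nerve and 0 in sham nerve.

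Among the pairs with the most intronic reads, Herpud2, Pan3, Ttc3 and Ssbp2 kept an intronic minority. Rsbn1l, the next by intronic reads, did not, with 15 intronic and 7 exonic reads over the 4 libraries. Herpud2's intronic circle held 38.5% and 42.1% of its pair's reads after crush and 29.0% and 38.5% after sham, beside 24, 22, 22 and 8 exonic reads. That of Pan3 held 17.4% and 19.2% after crush and 37.5% and 29.4% after sham, beside 38, 42, 20 and 24 exonic reads. The difference was -15.1 percentage points with groups that did not overlap (exact permutation p = 0.333, the smallest possible). It was taken against 1 of the 8 exonic circRNAs of Pan3. With every Pan3 circle counted, the intronic share was 15.2% and 19.0% in crush replicates 1 and 2. Sham replicates 1 and 2 had 24% and 15.2%, so at that level the groups overlapped. The intronic circle of Ttc3 held 7.84% and 12.9% of its pair's reads after crush and 7.25% and 7.38% after sham. Its exonic partner had 47 and 61 reads in crushed nerve and 179 and 138 in sham nerve. Ssbp2 had exonic partner reads of 4 and 4 against 12 and 12, the same side as its intronic circle.

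**Figure D5:**
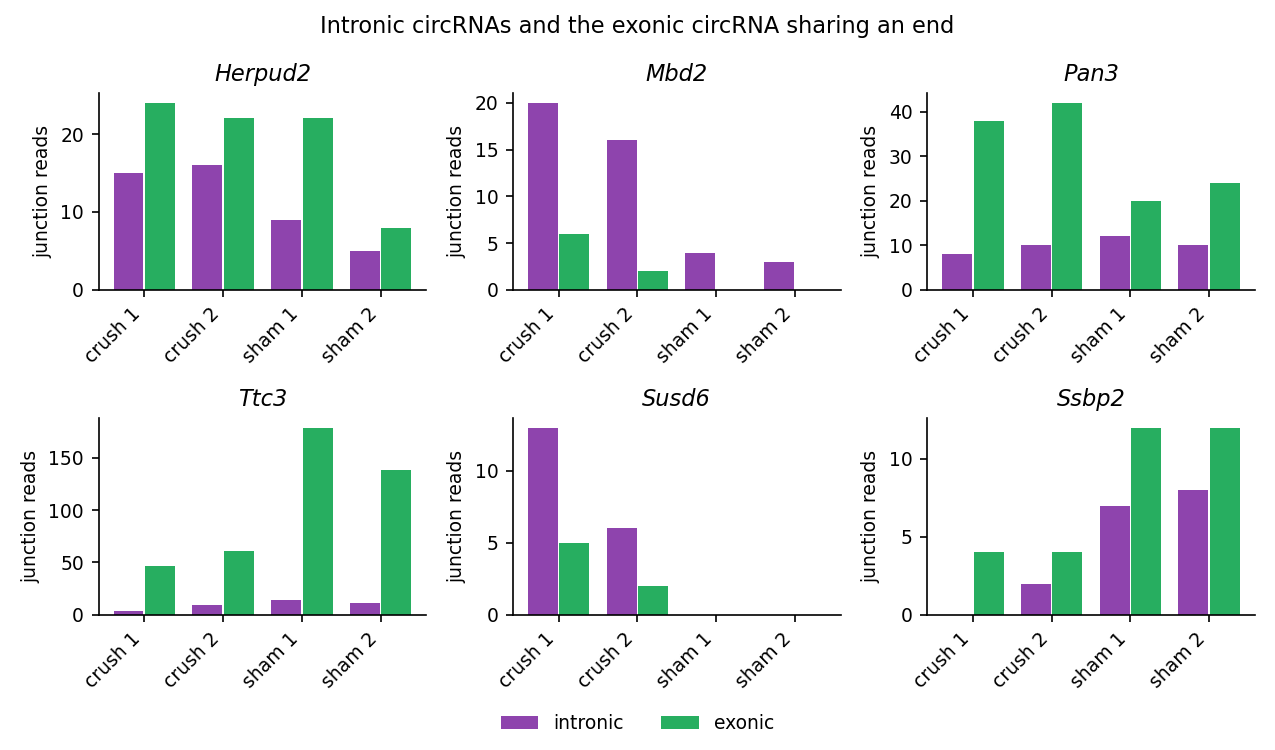
Junction reads of an intronic circRNA and of an exonic circRNA that shares an end with it, in each library. The 6 intronic circRNAs with the most reads among such pairs are shown, and each panel has its own axis from 0. The intronic circRNA exceeds its partner in Mbd2 and Susd6 and lies below it in Herpud2, Pan3, Ttc3 and Ssbp2.

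Summed over all circles of a host, the classes were set side by side for the hosts tested in both. Ttc3 had 57 and 70 exonic reads in crushed nerve and 210 and 173 in sham nerve, a fall of the exonic entry (log2 change -1.31 ± 0.28 (SE), adjusted p = 0.0444, edgeR), and its intronic entry had a log2 change of -1.05 ± 0.60 (adjusted p = 0.326). Cdyl had 28 and 43 exonic reads in crushed nerve and 7 and 10 in sham nerve, a rise (log2 change 2.31 ± 0.50 (SE), adjusted p = 0.0441, edgeR), with 2.85 ± 1.26 for its intronic entry (adjusted p = 0.204). Pan3, Herpud2, Ssbp2 and Kmt2e passed in neither class. The differences between classes were not tested. Klhl21, Mgam, Zfp629 and Mbd1 had no exonic circRNA, so nothing of theirs could be set beside the intronic reads.

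In all 4 libraries, a larger share of intronic than of exonic circRNAs lay on the strand opposite to their host gene. Gene strands were taken from RefSeq's GRCr8, another assembly than the files', and no source used here says how the files assigned strand. Of 383 intronic circRNAs matched by gene, 69 (18.0%) were opposite, against 139 of 3012 exonic ones (4.61%). As a check on stretches turned between assemblies, neighbouring hosts were compared as well. Where the 4 nearest exonic hosts all lay on the RefSeq strand, the counts were 53 of 338 (15.7%) and 33 of 2686 (1.23%). By library the intronic share was 21.1% and 19.0% after crush and 11.2% and 17.9% after sham, and the exonic share was 4.51% to 5.22% (mean difference 12.4 ± 4.30 percentage points, SD over 4 libraries; exact sign-flip permutation p = 0.125, two-sided). This comparison was added after seeing the data.

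Zfp629 and all 8 Klhl21 circRNAs were among the opposite ones, and Mgam and Mbd2 were on the strand of their gene. Which transcript the reads named for Zfp629 and Klhl21 come from was not tested. The 69 had a median span of 1624 bases, against 7246.5 for the 314 on the gene's strand. They were listed 28 and 27 times after crush and 10 and 17 times after sham, with 89 and 120 reads against 28 and 44 (exact permutation p = 0.333 for both). Without Klhl21 the reads were 67 and 69 against 28 and 44. Next after Zfp629 and Klhl21 in reads were Tmeff2 (6 and 0 against 4 and 0) and Epb41l2 (5 and 0 against 0 and 3).

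The files alone gave a smaller opposite share. Among 245 intronic circRNAs whose host had exonic circRNAs of 1 strand, 15 lay on the other strand, with 39 reads in all, at most 4 each, and a median span of 686 bases against 11192.5 for the 230 on the same strand. Rnf14, Tet2, Akap10 and Sbf2 led these 15, with 3 or 4 reads each.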

How the data were processed

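The authors deposited, per the file headers, back-splice junction read counts for each circRNA and the same counts scaled to a signal, SRPBM, which within a library was the count times 1 constant. Per the submitters' processing notes, BWA, CASAVA 1.8, edgeR and the build Rnor_6.0 were used, in roles not stated there, and the program that called circRNAs, its class rule and its strand rule are not given in the sources used here. Total RNA was made into paired-end libraries, per the labels' protocols. Here, counts were tested with edgeR 4.0.16 (glmQLFit and glmQLFTest, two-sided, R 4.3.3) for circRNAs with at least 5 reads in at least 2 of the 4 libraries, TMM-scaled over those of every class, with Benjamini-Hochberg adjustment over all of them and a threshold of 0.05. The test was first tried on simulated counts. Counts were also summed per host gene and class, leaving out the 3 intronic circRNAs with 2 host genes. Single values per library were compared with exact permutation tests in Python 3.11.15. Alternatives were DESeq2 1.42.0, other filters and scalings, each library left out, and a replicate block. Lower-bound folds use a floor of 3 reads per library in SRPBM and no TMM factor. Names follow the files, and of 383 hosts 352 matched a current RefSeq symbol, 16 a synonym and 15 neither. Named circRNAs are those past a test, the 6 of smallest p per direction, the 15 with most reads, those in every library or with at least 5 reads in both libraries of 1 group only, the leading hosts, the span extremes, and the leading members of each gene list and of each count of shared ends or strand. The second Nelfcd circRNA, Calcrl, Tmeff2, Epb41l2 and those in both libraries of 1 group with under 5 reads in either were named after their values were seen. The members and gene lists were chosen with earlier results of these data known. Some items that the rule names are not reported here.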

Additional observations from a re-analysis of the deposited data

How the results depend on the processing

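The count of intronic circRNAs called higher after crush, 3 in edgeR, was 7 with DESeq2, 0 with a minimum of 2 reads, 8 with no filter, 7 with intronic circRNAs fitted alone and 5 with near-identical circRNAs merged. Leaving out 1 library gave 0 to 9; without either crush library a circRNA at 0 in sham could not be tested. The count called lower, 0, was 2 with no filter and 0 to 1 with 1 library left out. For host sums the count higher, 3, was 6 with DESeq2, 0 with a minimum of 2 reads, 6 with no filter and 0 to 5 with 1 library left out, and the count lower, 0, was 1 with no filter. Deviations of libraries with the same replicate number had a correlation of -0.111 over 428 circRNAs. A single correlation cannot show whether such libraries were paired. With the replicate number as a block, 0 circRNAs and 2 host sums were called higher. With crossed numbers as a block, added after seeing the data, both counts were 0. The difference in number listed, 49.5, was 3.5 with at least 5 reads, 42.5 for spans under 20 kb, 44 after merging and 46 to 53 with 1 library left out. The difference in percent of listed circRNAs, 1.92, was 0.813 with at least 5 reads and 1.56 to 2.28 with 1 library left out. The difference in median span between groups, -3394 bases, was -1748.5 for spans under 20 kb and -4526 to -2262 with 1 library left out, and that in share of reads was -0.05 to 2.36. With at least 5 reads required, intronic minus exonic was -784 bases in median span, 2.79 in mean reads per circRNA (-0.48 without that minimum) and -10.9 percentage points in listing by the other replicate. With 1 library left out these were -2787 to -1852, -0.82 to -0.28 and -25.7 to -20.1. Of the alternatives for single circRNAs and hosts, 188 kept direction and side of the threshold, 27 moved past it, 22 fell short of it and 2 reversed. Both were Dennd5b without crush replicate 2, with a log2 change of 0.51 for the circRNA and 0.61 for the host sum, against -0.67 and -0.54. Without sham replicate 1 these were -1.74 and -1.77, and its circRNA was the 1 called lower there (adjusted p = 0.0350, edgeR). With 19 of 479 members tested and many listed at 2 reads, the main test says nothing of the others. The 2 called lower with no filter, from Ralgapa1 and Nelfcd (6519 bases), were read in sham replicate 1 alone.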
